A study of Homo sapiens with 18 samples.

Results

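Translational efficiency (TE) is the number of ribosome footprints on an mRNA relative to the amount of that mRNA. The change in TE between human pluripotent stem cells (hPSC) and definitive endoderm (DE) was read from total footprints and RNA-seq of the same stages, as (DE footprints minus DE RNA) minus (hPSC footprints minus hPSC RNA) on the log2 scale. A positive value means that footprints rose more, or fell less, than the RNA did. The change was examined in 10953 protein-coding genes, 57.0% of the 19201 protein-coding genes among 57808 features of the table. Each of them had at least 10 estimated counts in each of the 8 libraries. Of the 8248 protein-coding genes that were left out, 1174 had no count in any of these libraries. The minimum fell mostly on footprints: 14226 protein-coding genes had 10 counts in all 4 RNA libraries, and 3273 of these were left out because of a footprint library. The 145 genes whose lowest library held from 10 to under 11 counts had a median TE change of 0.30 and a median standard error of 0.41, and the 143 genes from 9 to under 10 counts had 0.24 and 0.42.

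The cells were of the MEL1 line, an established human embryonic stem cell line with GFP placed in 1 allele of the insulin gene (INSGFP/W). Both stages carried RPL22-FLAG, a tagged large-subunit ribosomal protein, so the tag is shared by the 2 stages compared. The hPSC were the undifferentiated cells, kept on Matrigel in mTeSR+, and the DE was made from this line by directed differentiation. Each stage had 2 RNA libraries, depleted of ribosomal RNA with RNase H, and 2 libraries of total footprints, made by RNase I digestion without cycloheximide. Footprints pulled down through the tag (FLAG footprints, 2 libraries per stage) are given beside the total footprints where they bear on a gene. Whether the paired libraries within a group derive from independent cultures is not labelled; the p-values therefore measure only the spread between these libraries, and that spread may be technical. How many clones of the tagged line were used was not given in the sources used here.

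As background, a footprint is the stretch of mRNA that a ribosome shields from nuclease, so footprints count ribosomes on an mRNA whether they move or stall. Translation can be set gene by gene. The mRNAs of ribosomal proteins and several elongation factors begin with a cytosine followed by a pyrimidine run, the 5′ terminal oligopyrimidine (TOP) tract, through which mTORC1 and LARP1 control their loading with ribosomes. A separate route, the integrated stress response, lowers initiation in general and favours mRNAs with short upstream frames such as ATF4. Pluripotent cells leave the pluripotent state for endoderm under Nodal or activin and WNT signals.

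Total estimated counts, in units of 1e+06, were 79.77 to 92.53 in the RNA libraries and 22.29 to 30.17 in the footprint libraries. DE footprint library 1 stood apart. Only 40.3% of its counts fell on the genes examined, against 75.6% in DE footprint library 2 and 80.0% and 81.5% in hPSC, and 1 unnamed feature took 25.08% of it against 4.51% in library 2. The 2 libraries of a group differed by a median of 0.07 (hPSC) and 0.06 (DE) log2 units in RNA, and by 0.19 and 0.25 in footprints. In RNA the summed level of 8 endoderm markers rose from 12.1 and 11.4 CPM (counts per 1e+06 counts, TMM-scaled) in hPSC to 1976 and 2105 in DE, while that of 8 pluripotency markers went from 4202 and 4495 to 1560 and 1535. LIN28A made up most of the latter in DE (1233 and 1164 CPM). Summed markers of fibroblast feeder cells stood at 12.6 and 12.4 CPM in hPSC and 35.0 and 36.4 in DE, nearly all of it COL1A1 (34.8 and 36.3 CPM in DE), and INS was at 0 in all 4 RNA libraries. Trophoblast or amnion markers went from 1.19 and 1.04 to 33.1 and 26.8 CPM, of which GATA3 made up 30.3 and 24.8 in DE, with CGA at or below 0.0148 CPM in each RNA library. The part of these markers in the results below was not tested.

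TE changed little for most genes. The median TE change was 0.08, the middle 50% of genes lay between -0.12 and 0.34, and 8792 genes (80.27%) were within 0.5 log2 units of no change. RNA and footprints themselves moved more, with a median absolute change of 0.50 and 0.57. In all, 390 genes had a TE change above 1 and 59 below -1. With edgeR's quasi-likelihood F test, fitted over 21681 features and adjusted by Benjamini-Hochberg, 30 of the 10953 genes passed an adjusted p of 0.05, which is 0.274% of them. Of these 26 were higher in DE (0.237%) and 4 lower (0.0365%). Over all 21681 features tested 0.314% passed, 0.24% higher and 0.0738% lower. At an unadjusted p under 0.05 there were 1481 higher (13.5%) and 400 lower (3.65%), where the median standard error was 0.21.

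The count of genes that passed rested on single libraries. DESeq2 called 426 genes higher (3.89%) and 479 lower (4.37%), against 3.94% and 3.24% of all features with a value. Without DE footprint library 1 the edgeR fit called 338 genes, 78 higher and 260 lower, and without DE footprint library 2 it called 2845, 513 higher and 2332 lower. In these fits the median TE change of all genes was -0.18 and -0.29, a shift of -0.26 and -0.37. Without any 1 of the 4 RNA libraries, or without hPSC footprint library 2, it called 0 (at an unadjusted p under 0.05 from 914 to 1590), and without hPSC footprint library 1 it called 5. In fits with 1 library left out, the lone library is assumed to vary like the rest. All 30 genes kept their sign in each of these fits, which reuse the libraries that selected them. The plot of footprint against RNA change shows that the called genes lie off the diagonal along which most genes fall.

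**Figure D1:**
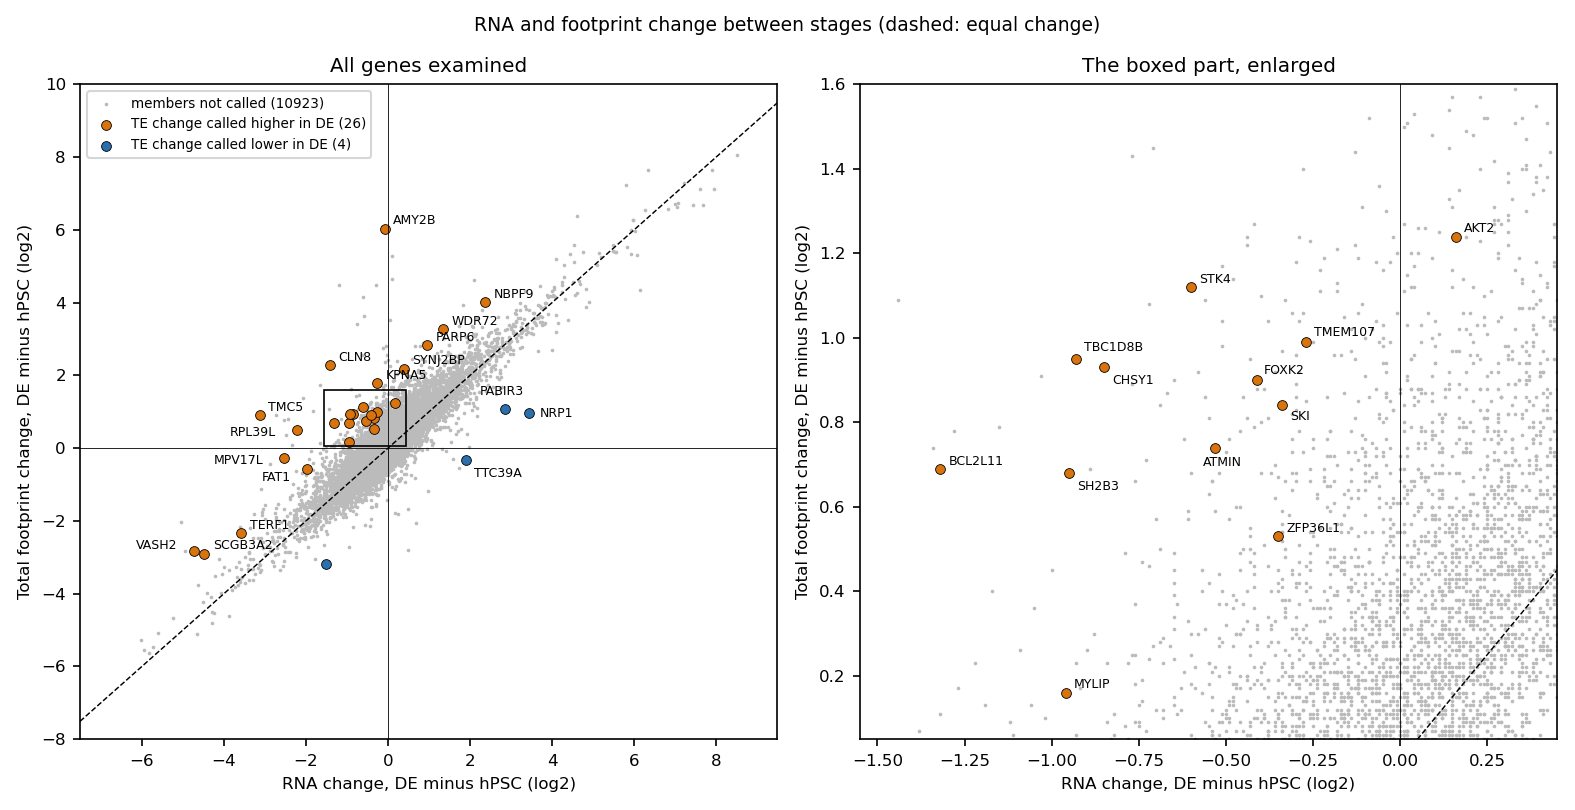
Each grey point is 1 of the 10953 genes, with its RNA change on the horizontal and its total footprint change on the vertical axis (both log2, DE minus hPSC). The dashed line marks equal change; the 26 genes called higher lie above it (orange), the 4 called lower lie below it (blue), and the right panel enlarges the boxed part.

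A second description does not need a test: whether the ratio of footprints to RNA in all 4 pairs of DE libraries lay above, or below, that in all 4 pairs of hPSC libraries. It lay above in 2823 genes (25.8%, against 21.6% of all features tested) and below in 1186 (10.8%, against 10.4%). These shares move with the scaling between assays. With DESeq2's size factors in place of TMM the median of all genes shifted by -0.12, and the shares became 17.2% above and 20.8% below. The median TE change of a gene list is therefore to be read against the 0.08 of all genes examined, and the difference from it (before rounding) is given beside the lists described at length.

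Among the 26 genes called higher, 10 had RNA and footprints that were both called and went opposite ways, with RNA falling and footprints rising. They were ATMIN, BCL2L11, CHSY1, CLN8, FOXK2, SKI, STK4, TBC1D8B, TMC5 and ZFP36L1. Of the genes described from here to the genes called lower, CHSY1, TBC1D8B, SCGB3A2, VASH2, MPV17L, SH2B3, MYLIP, KPNA5, PARP6, SYNJ2BP, WDR72, NBPF9 and AMY2B were chosen after their values were seen, since their mean level was below the log2 CPM of 4 set for naming genes.

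SKI encodes a repressor of SMAD signalling, the intracellular arm of the Nodal pathway. Its RNA stood at 104 and 100 CPM in hPSC and 81.8 and 80.1 in DE, while its footprints went from 9.39 and 7.80 CPM to 16 and 14.8. No DE library overlapped an hPSC library in either assay, and the TE change was 1.18 ± 0.15 (SE, adjusted p = 0.0453 by edgeR). ZFP36L1, an RNA-binding protein that promotes decay of AU-rich mRNAs, had 118 and 114 CPM of RNA in hPSC against 90.8 and 91.9 in DE. Its footprints rose from 20.4 and 20.6 to 28.5 and 30.6 CPM, for a TE change of 0.88 ± 0.12 (adjusted p = 0.0453, edgeR). It was the smallest change among the 30 genes. The value stood at 0.65 without DE footprint library 1 and at 0.49 without library 2. In these 2 fits the median of all genes shifted by -0.26 and -0.37.

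BCL2L11 (BIM), a BH3-only protein that promotes apoptosis, had RNA of 25.9 and 27.3 CPM in hPSC and 10.6 and 10.8 in DE. Footprints went the other way, from 17.5 and 15 to 23.0 and 29.0 CPM. The ratio of footprints to RNA thus rose 4.01-fold, a TE change of 2.00 ± 0.19 (adjusted p = 0.0236, edgeR). STK4 (MST1), a kinase of the Hippo pathway, fell in RNA from 57.6 and 56.4 to 37.6 and 37.6 CPM while its footprints rose from 45.1 and 34.4 to 93.6 and 79.3 CPM. Its TE change was 1.72 ± 0.20 in total footprints, but 0.07 in FLAG footprints.

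ATMIN, a cofactor of the ATM kinase and a transcription factor, had a TE change of 1.27 ± 0.14, with RNA changed by -0.53 and footprints by 0.74. FOXK2, a forkhead transcription factor, gave a similar picture with -0.41 in RNA, 0.90 in footprints and 1.32 ± 0.14 in TE. Both were measured on few footprints: 9.33 and 8.62 CPM in hPSC for ATMIN and 6.05 and 5.16 for FOXK2. CHSY1, a chondroitin synthase, and TBC1D8B, a Rab GTPase-activating protein, had TE changes of 1.78 ± 0.17 and 1.87 ± 0.21.

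CLN8, a cargo receptor for lysosomal enzymes in the endoplasmic reticulum, had the largest TE change of the genes whose footprints did not exceed their RNA. RNA was 98.0 and 118 CPM in hPSC and 40.1 and 40.5 in DE. Footprints numbered only 2.08 and 2.31 CPM in hPSC (33 and 42 counts) and 13.3 and 8.43 CPM in DE. The TE change was 3.70 ± 0.31 (adjusted p = 0.0236, edgeR). It was 3.08 without DE footprint library 1 and 3.68 without library 2, where the median of all genes shifted by -0.26 and -0.37. FLAG footprints gave 3.26 (adjusted p = 0.0239, edgeR).

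A second set of called genes lost RNA between the stages and lost footprints to a lesser extent, or did not change in footprints. TERF1 (TRF1), a shelterin protein at telomeres that is abundant in pluripotent cells, had 333 and 343 CPM of RNA in hPSC and 28.1 and 28.6 in DE. Its footprints fell from 703 and 781 to 154 and 141 CPM. RNA thus changed by -3.58 and footprints by -2.33, a TE change of 1.25 ± 0.14 (adjusted p = 0.0292, edgeR). FAT1, an atypical cadherin, went from 115 and 107 to 27.6 and 29.2 CPM in RNA, and from 17.6 and 14.6 to 11.8 and 10 CPM in footprints (TE change 1.40 ± 0.18). The secretoglobin SCGB3A2 and VASH2, a tubulin carboxypeptidase related to vasohibin, lost still more RNA (-4.48 and -4.73) and had TE changes of 1.58 ± 0.15 and 1.90 ± 0.14.

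RPL39L, a paralog of the ribosomal protein RPL39 that is enriched in testis and in pluripotent cells, fell in RNA from 93.4 and 112 to 20.9 and 23.1 CPM. Its footprints were 338 and 607 CPM in hPSC and 711 and 636 in DE, and did not pass the test for a change. Its TE change of 2.74 ± 0.37 (adjusted p = 0.0496, edgeR) is uncertain, because the 2 paralogs are nearly identical and short reads can be split between them. RPL39 itself had RNA of 336 and 365 CPM in hPSC and 343 and 358 in DE, footprints of 504 and 645 against 370 and 323, and a TE change of -0.73 ± 0.20, which did not pass. MPV17L, an inner mitochondrial or peroxisomal membrane protein, SH2B3 (LNK), an adaptor that dampens cytokine signalling, and MYLIP (IDOL), a ubiquitin ligase, likewise fell in RNA only. Their TE changes were 2.26 ± 0.27, 1.63 ± 0.20 and 1.13 ± 0.15. The last was 0.75 without DE footprint library 2, where the median of all genes shifted by -0.37.

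The remaining called genes gained footprints beyond their RNA. AKT2, a kinase downstream of insulin and PI3K, had nearly the same RNA in both stages (74.3 and 73.8 against 80.6 and 84.7 CPM). Its footprints rose from 21.8 and 19.1 to 49.0 and 47.3 CPM, for a TE change of 1.08 ± 0.13 (adjusted p = 0.0387, edgeR). KPNA5, an importin alpha, was similar, with RNA changed by -0.26 (not called) and footprints by 1.8. PARP6, a mono-ADP-ribosyltransferase, SYNJ2BP, an outer mitochondrial membrane protein, and WDR72, a protein of vesicle trafficking, rose in RNA by 0.96, 0.38 and 1.34 and in footprints by 2.84, 2.19 and 3.27. NBPF9, of a gene family with many near-identical copies, rose in both, and its value of 1.64 ± 0.22 is uncertain for that reason.

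**Figure D2:**
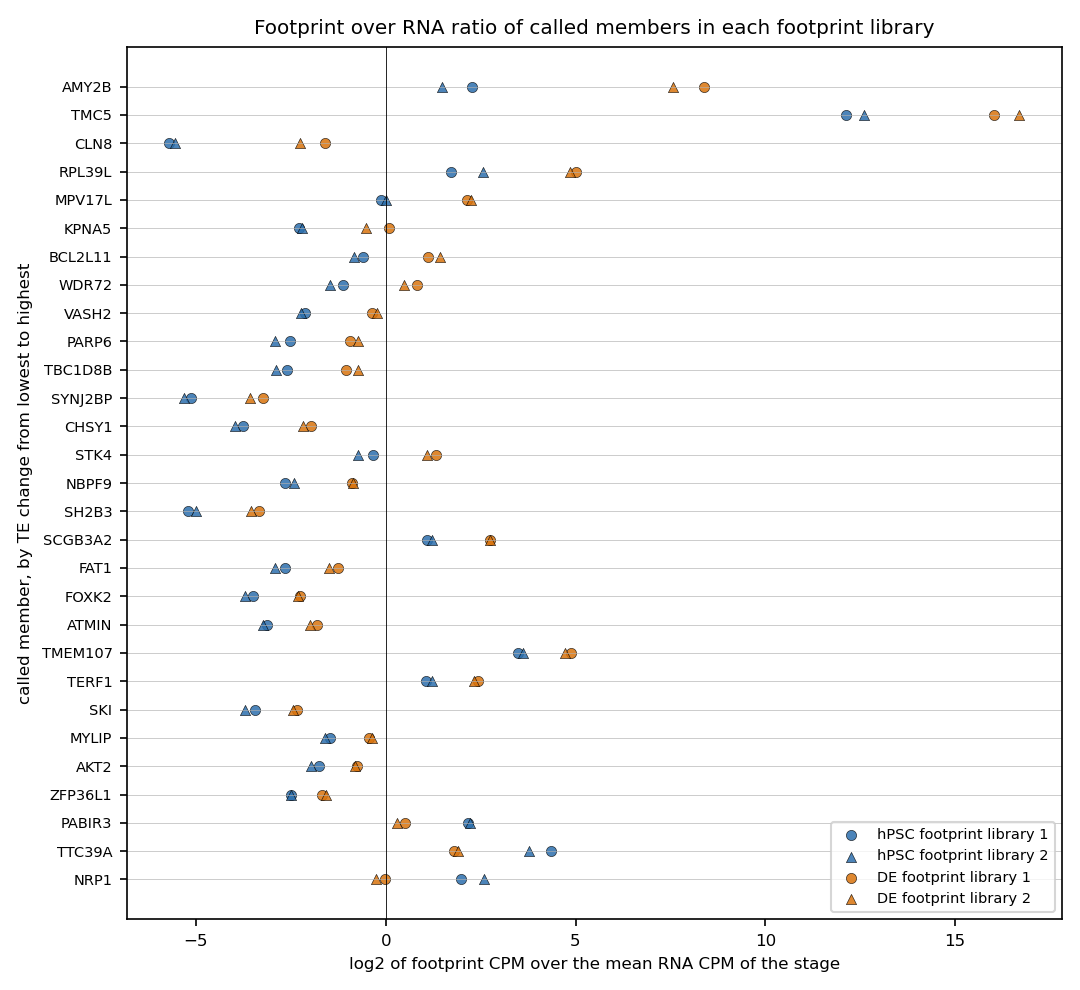
For each of 29 called genes the 4 points give the log2 ratio of its footprint CPM in 1 library to the mean RNA CPM of that stage (hPSC blue, DE orange; circles library 1, triangles library 2). In none of these genes do the orange and blue points overlap, and the 3 at the bottom are those lower in DE. The genes were selected by this same contrast, which favours such a gap.

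For some genes the footprint count was far above the RNA count, which a coding sequence rarely gives. The mean footprint CPM was over 10 times the mean RNA CPM in 68 of the 10953 genes, among them 3 of the 30 called: TMC5, AMY2B and TMEM107. TMC5, a transmembrane channel-like gene, had 2.2 and 2.45 CPM of RNA in hPSC but 10302 and 14271 CPM of footprints, and 0.245 and 0.286 against 17805 and 28358 CPM in DE. AMY2B, a pancreatic amylase with close paralogs, had RNA near 0.2 CPM throughout and footprints of 0.946 and 0.549 CPM in hPSC against 62 and 35.7 in DE. TMEM107, a protein of the ciliary transition zone, holds the small nucleolar RNA gene SNORD118 in its span, as annotated by RefSeq, and its footprints of 73.1 and 80.3 CPM in hPSC and 162 and 144 in DE stood 19.1 times above its RNA. Over 1200 genes with a RefSeq small RNA gene in their span the median TE change was 0.11, and 3 were called (MYLIP, AKT2 and TMEM107). How much of these counts comes from small or structured RNA was not tested. WDR74, a factor of ribosome biogenesis, was not called: its footprints of 8387 and 7369 CPM in hPSC and 327104 and 27079 in DE gave 5.69 ± 1.54 (adjusted p = 0.201, edgeR).

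Only 4 genes passed with a lower TE in DE, all below the level set for naming genes. The 3 described here were chosen after their values were seen. NRP1, a coreceptor for semaphorins and VEGF, rose in RNA from 0.652 and 0.616 to 6.44 and 7.43 CPM. Its footprints went from 2.52 and 3.79 to 6.77 and 5.81 CPM, so the gain in footprints (0.98) was smaller than that in RNA (3.45), and the TE change was -2.47 ± 0.32 (adjusted p = 0.0453, edgeR). FLAG footprints gave -0.22 for this gene. PABIR3, a gene on the X chromosome related to inhibitors of protein phosphatase 2A, also rose in both, from 2.09 and 1.98 to 15.8 and 13.9 CPM in RNA and from 9.08 and 9.56 to 21.1 and 18.2 CPM in footprints. Its TE change was -1.79 ± 0.19.

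TTC39A, a tetratricopeptide protein, rose in RNA only, from 2.33 and 3.04 to 9.44 and 10.6 CPM, and its footprints of 55.0 and 36.9 CPM in hPSC and 35.2 and 37.8 in DE did not pass the test. Its TE change was -2.23 ± 0.30.

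The same contrast with FLAG footprints shares the 4 RNA libraries, so the values are set side by side only. There 11 of the 10953 genes were called, of which 6 are among the 30. Those with a higher value were CLN8 (3.26), VASH2 (2.29), NBPF9 (2.68), KPNA5 (1.51) and AMY2B (11.79). The sign was the same in FLAG footprints for each of the 30 genes, with STK4 (0.07) and NRP1 (-0.22) nearest to 0.

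The ratio of footprints to RNA was spread less widely over genes in DE than in hPSC. The middle 50% of genes spanned 1.82 and 1.97 log2 units in the hPSC footprint libraries and 1.69 and 1.64 in the DE libraries. When genes were ordered by their hPSC ratio in FLAG footprints, whose footprint libraries do not enter the total-footprint contrast, the TE change went down steadily along that order. Its median was 0.45 in the quintile of lowest ratio, then 0.20, 0.06 and -0.01, and -0.10 in the quintile of highest ratio. In the lowest quintile 52.1% of genes had all DE ratios above all hPSC ratios and 3.51% below, and in the highest 7.03% and 24.1%. Each DE footprint library gave this order, with medians from 0.48 to -0.12 in library 1 and from 0.42 to -0.08 in library 2. The ordering uses the hPSC RNA libraries, which also enter the TE change, so an error in them pushes both in this direction.

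The TE change also went with abundance and with promoter base content. By quintile of mean log2 CPM the median went from 0.20 in the least to -0.04 in the most abundant genes, and in the latter quintile more genes had all DE ratios below (20%) than above (15.9%). A RefSeq promoter window (250 bases before to 50 after a start, GRCh38.p14) was matched to 9065 genes (82.8%). The quintile of highest GC had a median of 0.21 and 36.1% of genes above, against 0.02 and 21.3% in the quintile of lowest GC. The 160 solute carriers (symbols with SLC and a digit) had a median of 0.28, with 39.4% above and 3.1% below, and the 394 zinc finger genes (ZNF and a digit) 0.13, with 27.4% and 7.1%.

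**Figure D3:**
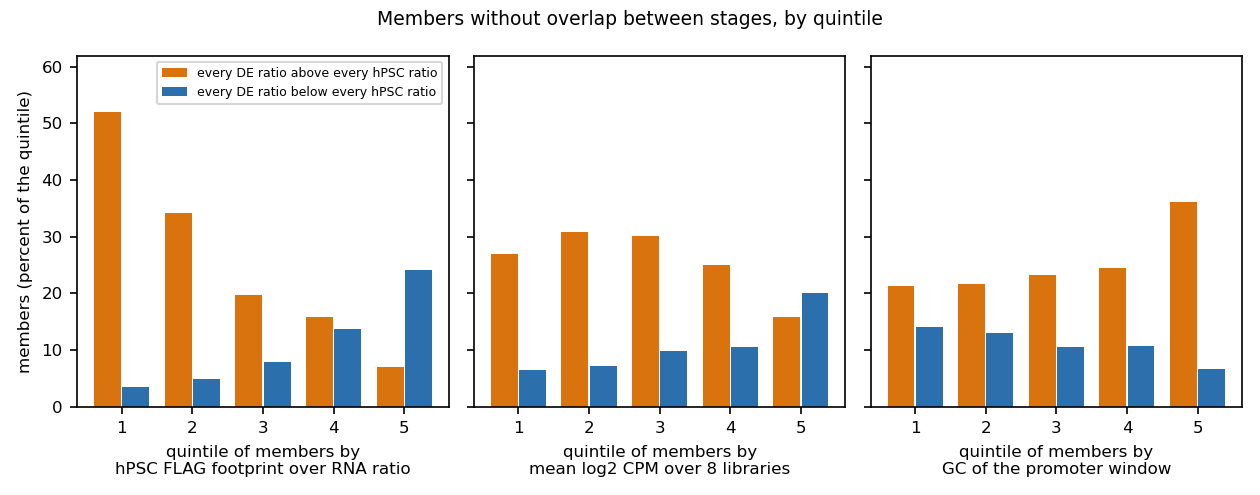
Bars give the percentage of genes in each quintile in which every DE ratio of footprints to RNA lay above (orange) or below (blue) every hPSC ratio, with genes ordered by their hPSC ratio in FLAG footprints (left), mean level (middle) and promoter GC (right). The orange bars fall from 52.1% to 7.03% in the left panel and rise from 21.3% to 36.1% in the right one.

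More ribosomal protein genes were called lower in footprints (67) than in RNA (45). These counts come from a fit with 1 spread for both assays. The biological coefficient of variation was 0.058 in RNA alone and 0.359 in footprints alone. How far the shared spread sets the counts apart was not tested. All 79 cytosolic ribosomal protein genes were among the genes examined, and their median TE change was -0.47, that is 0.56 below the median of all genes. RNA had a median change of -0.44, with 45 genes called lower and 0 higher (31.9% of the genes examined were called lower). Footprints had a median of -0.88, with 67 called lower and 0 higher (28.4% of the genes examined). No gene of the list passed the TE test in edgeR, in which 38 had an unadjusted p under 0.05 and a negative value and 0 a positive one, and DESeq2 called 37 lower and 0 higher. Over the genes examined 3.65% were negative and 13.5% positive at that p, and DESeq2 called 4.37% lower and 3.89% higher. In 51 of the 79 every DE ratio was below every hPSC ratio, and in 3 above (10.8% and 25.8% of the genes examined).

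The low value of the ribosomal list did not rest on 1 library. Its median was -0.51 with DE footprint library 1 and -0.47 with library 2, and -0.41 in FLAG footprints. Under the alternatives it lay 0.51 to 0.62 below the median of all genes. As a class these mRNAs had high ratios, 1.53 and 1.8 log2 units above the median gene in the hPSC footprint libraries, and 1.01 and 1.13 in DE. Compared with genes of the same decile of hPSC FLAG ratio the list was still 0.44 lower, with 67 of its genes below and 12 above the median of their decile. Of all footprints on genes whose footprint level was at most 10 times their RNA, the 79 genes held 15.1% and 14.9% in hPSC and 10.8% and 10.3% in DE. In RNA they held 8.84% and 9.16% against 7.36% and 7.56%.

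The genes of this list did not move alike. RPL13A, part of the large subunit, went from 1424 and 1486 to 1028 and 1074 CPM in RNA and from 3970 and 4131 to 1912 and 2066 CPM in footprints, a TE change of -0.56 ± 0.14 (adjusted p = 0.147, edgeR). RPL3, at the peptidyl transferase centre, had -0.21 ± 0.13. The ends of the list were chosen after their values were seen. RPS26, on the mRNA exit side of the small subunit, was lowest at -1.75 ± 0.35, with footprints of 62.9 and 102 CPM in hPSC and 10.3 and 14.6 in DE. RPS18 had -1.01 ± 0.17 on far more footprints (2911 and 2814 against 1060 and 1290 CPM), and RPS4X -0.88 ± 0.17. At the other end RPS28 had 0.99 ± 0.87, with footprints of 656 and 339 CPM in hPSC and 1257 and 343 in DE, and RPL21 had 0.78 ± 0.35. Without DE footprint library 1 these became -0.50 and 0.00, while the median of all genes shifted by -0.26. The tagged protein's own gene, RPL22, had -0.33 ± 0.20. Reads from RPL22-FLAG may count toward this gene, and their part in the value was not tested. Ribosomal protein genes have many processed pseudogenes of near-identical sequence, so single values are uncertain. The part of such pseudogenes in the value of the whole list was not tested.

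The 20 other mRNAs of the TOP class gave nearly the same values, with a median of -0.49, 0.58 below all genes, and of -0.48 in FLAG footprints. Of these 11 had an unadjusted p under 0.05 and a negative value and 1 a positive one, 0 passed the adjusted test in edgeR, and DESeq2 called 10 lower and 1 higher. Over the genes examined 3.65% were negative and 13.5% positive at that p, and DESeq2 called 4.37% lower and 3.89% higher. EEF2, the translocase of elongation, went from 1965 and 2075 to 1371 and 1433 CPM in RNA and from 2247 and 2049 to 874 and 1226 CPM in footprints. Its TE change was -0.51 ± 0.23, and 0.23 ± 0.29 in FLAG footprints. EEF1A1, which brings aminoacyl-tRNA to the ribosome, had footprints of 26895 and 36108 CPM in hPSC and 17424 and 12552 in DE, and -0.44 ± 0.28. Chosen after their values were seen, EEF1D had -0.73 ± 0.14, EIF3H -0.86 ± 0.18, NAP1L1, a histone chaperone, -0.68 ± 0.17 and RACK1, a scaffold on the small subunit, -0.57 ± 0.15. NACA, a chaperone subunit at the ribosome exit, at 0.00 ± 0.15, TPT1 (TCTP), at -0.09 ± 0.15, and EIF4B, an initiation factor, at -0.11 ± 0.14, were nearer to 0 in total footprints. In FLAG footprints TPT1 had -0.85 ± 0.21. PABPC1, the cytosolic poly(A)-binding protein, fell in RNA from 1278 and 1328 to 656 and 629 CPM while its footprints stood at 1203 and 1383 CPM in hPSC and 1185 and 983 in DE. Its TE change of 0.77 ± 0.18 (adjusted p = 0.128, edgeR) was the only positive one in the list with an unadjusted p under 0.05.

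The annotated starts of 5 of these genes are printed to show a pyrimidine run and a start without one of at least 5 bases. Each sequence is 25 bases of the coding strand from RefSeq (GRCh38.p14), 10 bases before and 15 from the annotated start, with capitals for an unbroken run of at least 5 C or T that begins within 5 bases of the start. EEF1A1 lies at chr6:73521018-73521042 (minus strand), EEF2 at chr19:3985449-3985473 (minus), RPS3 at chr11:75399508-75399532 (plus), RPS18 at chr6:33272065-33272089 (plus) and EEF1G at chr11:62573877-62573901 (minus).
EEF1A1: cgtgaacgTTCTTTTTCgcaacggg
EEF2: cgtcagcgTTCTCTTCCgccgtcgt
RPS3: cgagccaCTTCCTTTCCTTTCagcg
RPS18: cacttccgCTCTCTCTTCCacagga
EEF1G: cgggcggcttactttgcggcagcgc
The run is present in the first 4. EEF1G has no run of at least 5, but holds a run of 4 (cttt) that begins within 5 bases of the start. The search counts only a run that begins near the annotated start. Long pyrimidine runs that begin further upstream and span it count as none. RACK1, RPL24, RPL13A, RPL14, RPL21, RPL29, RPL37A, RPL7A, RPS7, RPS10, FAU and EIF2S3 hold such runs. The shares that follow miss these and take only a run that begins within 5 bases of the start. Such a run was found in 28.9% of all 27305 gene windows of the table, in 32.7% of the windows of the genes examined, in 73.0% of 63 ribosomal protein windows and in 76.9% of 13 windows of the other TOP genes. Since only 63 of 79 ribosomal proteins and 13 of 20 other TOP genes were matched, under the 80% set for such a check, the split of these lists by a run is void and is not reported. Among the other genes the median TE change was 0.08 in 2909 with a run and 0.08 in 6080 without. The latter can include genes whose run begins further upstream.

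**Figure D4:**
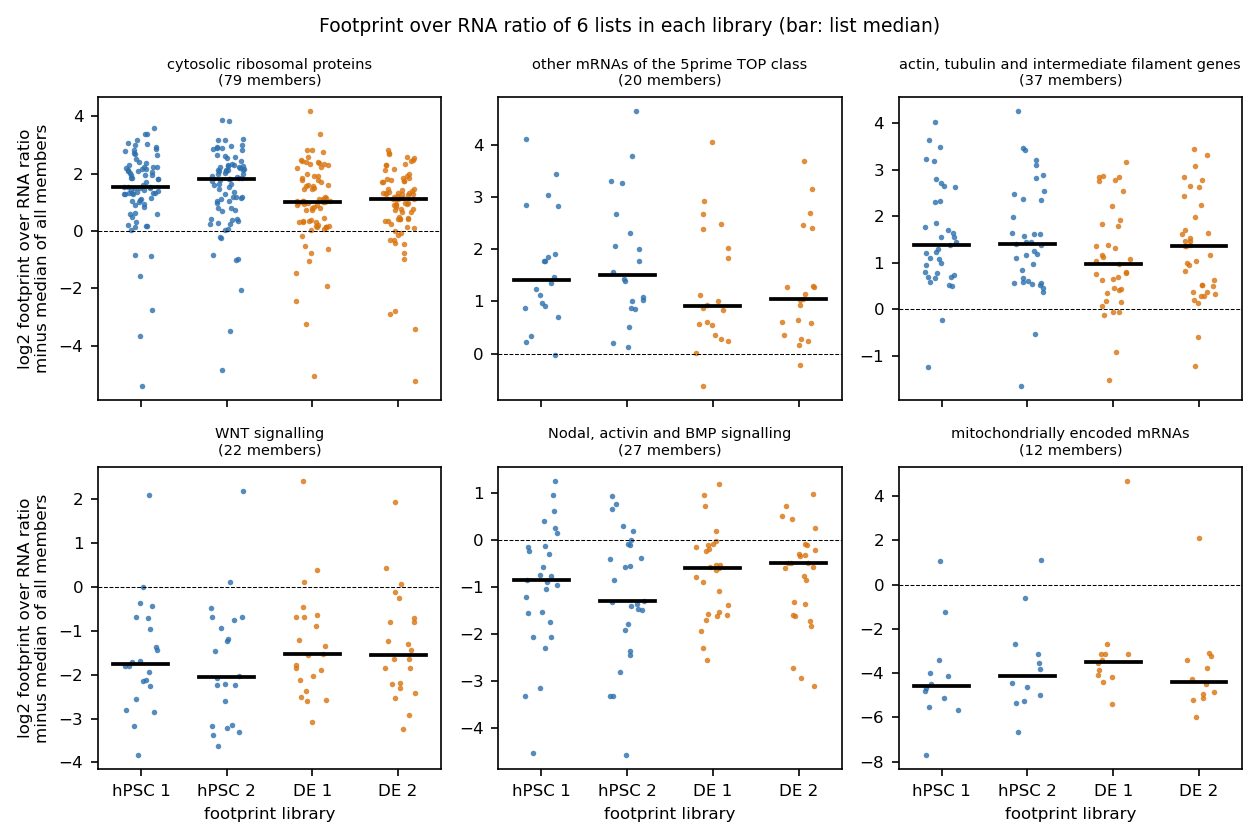
Each point is 1 gene of a list in 1 footprint library (hPSC blue, DE orange), placed at the log2 ratio of its footprint CPM to the mean RNA CPM of the stage, minus the median of all genes in that library; black bars are list medians. The bar of the ribosomal proteins stands at 1.53 and 1.8 in hPSC and 1.01 and 1.13 in DE, while the bar of the WNT genes moves from -1.74 and -2.05 to -1.54 and -1.54.

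Translation genes outside these 2 lists had medians closer to that of all genes. The 39 other translation factors had a median of -0.09 and the 20 cytosolic aminoacyl-tRNA synthetases of -0.12, which relative to all genes is -0.17 and -0.21, and their medians relative to genes of the same decile of hPSC FLAG ratio were -0.02 and -0.05. Among the factors, EIF5A, the hypusinated elongation factor that relieves ribosomes at polyproline, had the value nearest to the threshold. Its RNA fell from 677 and 717 to 262 and 253 CPM, its footprints fell less, from 1619 and 1376 to 1088 and 1096 CPM, and the TE change was 0.98 ± 0.16 (adjusted p = 0.0662, edgeR). EPRS1, the glutamyl-prolyl-tRNA synthetase, had RNA changed by -1.63 and footprints by -2.23, with a TE change of -0.61 ± 0.15.

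Of 15 integrated stress response mRNAs with upstream frames 0 passed, and the list's median was 0.17. At an unadjusted p under 0.05 there were 3 with a positive and 1 with a negative value (13.5% and 3.65% of the genes examined). In FLAG footprints the median was 0.63. The difference from all genes was 0.09, against 0.24 without DE RNA library 1, -0.06 without DE RNA library 2 and 0.50 in FLAG footprints. ATF4, the transcription factor of this response, had RNA of 245 and 268 CPM in hPSC and 300 and 281 in DE. Its footprints were 163 and 162 CPM in hPSC and 360 and 318 in DE, so that they rose by 1.06 (adjusted p = 0.000313, edgeR) while the RNA change of 0.18 did not pass. The TE change was 0.88 ± 0.15 (adjusted p = 0.0709, edgeR), 1.09 in FLAG footprints, and all DE ratios were above all hPSC ratios. PPP1R15A (GADD34), which reverses the response, had -0.30 ± 0.17, and its constitutive relative PPP1R15B (CReP), chosen after its values were seen, had 0.66 ± 0.16.

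Genes of polyamine and hypusine metabolism (14) had a median of 0.25, with 5 positive and 0 negative values at an unadjusted p under 0.05 (13.5% and 3.65% of the genes examined). AMD1, which makes the aminopropyl donor of polyamines, was not one of them (-0.36 ± 0.40). The 5 mRNAs with iron-responsive elements and the 18 selenoproteins, each known for control during translation, had medians of 0.06 and 0.00, and among these only TFRC, at 0.53 ± 0.20, had an unadjusted p under 0.05. FTH1 and FTL, the ferritin chains, had -0.55 ± 0.31 and 0.59 ± 0.62, and the DE footprint libraries disagreed for FTL (453 and 162 CPM).

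mRNAs of the mitochondrial genome are read by mitochondrial ribosomes, which do not carry RPL22-FLAG. The 12 that met the minimum had the highest median TE change of the 30 lists, 0.90, with 6 positive and 1 negative value at an unadjusted p under 0.05 and 0 called. Over the genes examined 13.5% were positive and 3.65% negative at that p. The list median depended on the library: it was 1.10 with DE footprint library 1 and 0.49 with library 2. In FLAG footprints, pulled down through a tag that these ribosomes lack, the median was 1.02. What the reads on these mRNAs stem from was not tested. These mRNAs held few footprints for their RNA, and their median ratio lay from 3.49 to 4.60 log2 units below the median gene in the 4 footprint libraries. Against genes of the same decile of hPSC FLAG ratio their median difference was 0.33, with 7 above and 5 below. The part of the hPSC ratio in the list's value was not tested. MT-CO1, a subunit of cytochrome c oxidase, had RNA of 1250 and 1573 CPM in hPSC and 910 and 670 in DE, and footprints of 82.2 and 92.7 CPM in hPSC and 119 and 86.7 in DE (TE change 1.07 ± 0.30, adjusted p = 0.178, edgeR). Of the 12, 3 had values below 0: MT-ND3 at -2.28 ± 0.38, MT-ATP6 at -0.39 ± 0.66 and MT-ATP8 at -0.20 ± 0.59. MT-ND6, the only one on the light strand, had 103 CPM of footprints in DE library 1 against 18.1 in library 2.

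Nuclear genes for the same organelle did not share this. The 74 respiratory chain subunits and the 77 mitochondrial ribosomal proteins had medians of -0.04 and -0.05. MRPS7, a small-subunit mitochondrial ribosomal protein chosen after its values were seen, came nearest to the threshold with 0.84 ± 0.13 (adjusted p = 0.0598, edgeR), as its RNA fell by 0.48 and its footprints rose by 0.36.

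The genes that define the 2 stages changed in RNA far more than in TE. For 15 endoderm genes with enough counts in hPSC, the median change was 5.93 in RNA, 5.97 in footprints and 0.02 in TE, and all 15 were called higher in both RNA and footprints (23.6% and 28.8% of the genes examined were). CER1, a secreted antagonist of Nodal, BMP and WNT, went from 3.32 and 2.89 to 719 and 779 CPM in RNA and from 4.35 and 3.02 to 600 and 872 CPM in footprints. GATA6, GATA4, EOMES and FOXA2, transcription factors of endoderm, had TE changes of -0.45 ± 0.34, -1.0 ± 0.44, 0.07 ± 0.39 and -0.18 ± 0.26, none of which passed. Their hPSC footprint libraries held few counts: 14 and 10, 15 and 11, 10 and 28, and 40 and 31, in that order. FLAG footprints gave -0.27, 0.44, -0.14 and 1.06. Relative to all genes the median TE change of the 15 endoderm genes was -0.07, and 0.21 in the 8 that met the stricter filter. SOX17, GSC and CXCR4 were among the 8 listed endoderm genes that did not meet the minimum, with RNA of 226, 85.9 and 129 CPM in DE RNA library 1.

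In the 20 pluripotency genes the median RNA change was -1.69 and the median TE change 0.23, with TERF1 as the only one called. POU5F1 (OCT4), the central factor of the pluripotent state, fell from 968 and 986 to 20.4 and 19.9 CPM in RNA and from 2184 and 1671 to 53.9 and 59.9 CPM in footprints. Its TE change was 0.52 ± 0.20 (adjusted p = 0.283, edgeR), and that of NANOG, after a fall in RNA of 5.94, was 0.38 ± 0.12 (adjusted p = 0.216, edgeR). In both genes all DE ratios were above all hPSC ratios. DNMT3B, a de novo DNA methyltransferase, changed by -3.60 in RNA and -3.68 in footprints, which left a TE change of -0.08 ± 0.14. L1TD1, an RNA-binding protein of pluripotent cells, had -0.49 ± 0.17.

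Nodal and WNT are the signals that drive this step. Of 27 genes of Nodal, activin and BMP signalling 0 passed, 11 had an unadjusted p under 0.05, all positive, and in 13 all DE ratios were above (0 below). Over the genes examined 13.5% were positive at that p, and 25.8% had all DE ratios above and 10.8% below. The list median was 0.13, which is 0.05 above all genes; this difference was 0.21 without DE footprint library 1, 0.36 without library 2 and 0.37 with the stricter filter. Among ligands and antagonists, the Nodal inhibitors LEFTY1 and LEFTY2 had TE changes of 1.78 ± 0.45 and 1.31 ± 0.36, and NODAL 0.74 ± 0.28. LEFTY2 went from 8.63 and 8.53 to 648 and 743 CPM in RNA and from 2.77 and 1.54 to 359 and 498 CPM in footprints. Of the receptors, ACVR2B had level RNA (153 and 149 against 138 and 150 CPM) and footprints of 6.12 and 5.82 CPM in hPSC and 45.7 and 16.9 in DE. Its TE change was 2.44 ± 0.60, and 1.29 without DE footprint library 1, where the median of all genes shifted by -0.26. TGFBR1 had 0.58 ± 0.15, and of the transducers SMAD3 had 0.90 ± 0.23, SMAD2 0.38 ± 0.12 and the inhibitory SMAD7 1.06 ± 0.28. These genes were chosen after their values were seen, and none passed in edgeR.

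The 22 WNT genes had a median of 0.44, 0.35 above all genes (0.18 without hPSC footprint library 2). Of these 20 had positive values, 7 of them at an unadjusted p under 0.05, where 13.5% of the genes examined were positive. In 11 all DE ratios were above and in 0 below, against 25.8% and 10.8% of the genes examined. The list's median hPSC FLAG ratio of -1.9 lay in the quintile of lowest ratio, where 52.1% of genes were above and 3.51% below. The receptor FZD5, strongly induced in DE, had RNA of 42.2 and 45.3 CPM in hPSC and 876 and 1018 in DE, and a TE change of 0.91 ± 0.29. FZD7, another receptor, had 0.75 ± 0.21, the coreceptor LRP6 0.55 ± 0.18, and the repressor TCF7L1 0.44 ± 0.13, while CTNNB1 (beta-catenin) had 0.13 ± 0.20. These genes had low ratios in hPSC, 1.74 and 2.05 log2 units below the median gene. Against genes of the same decile of hPSC FLAG ratio the list's median difference was 0.07, with 12 of its genes above and 10 below; the part of the hPSC ratio in the list's value was not tested. For Nodal, activin and BMP signalling the difference from the decile was 0.00. The 28 extracellular matrix genes had a median of 0.32, 0.23 above all genes and 0.07 above their deciles, and the difference from all genes was 0.07 without hPSC footprint library 2, 0.13 without DE footprint library 2 and -0.04 in FLAG footprints.

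**Figure D5:**
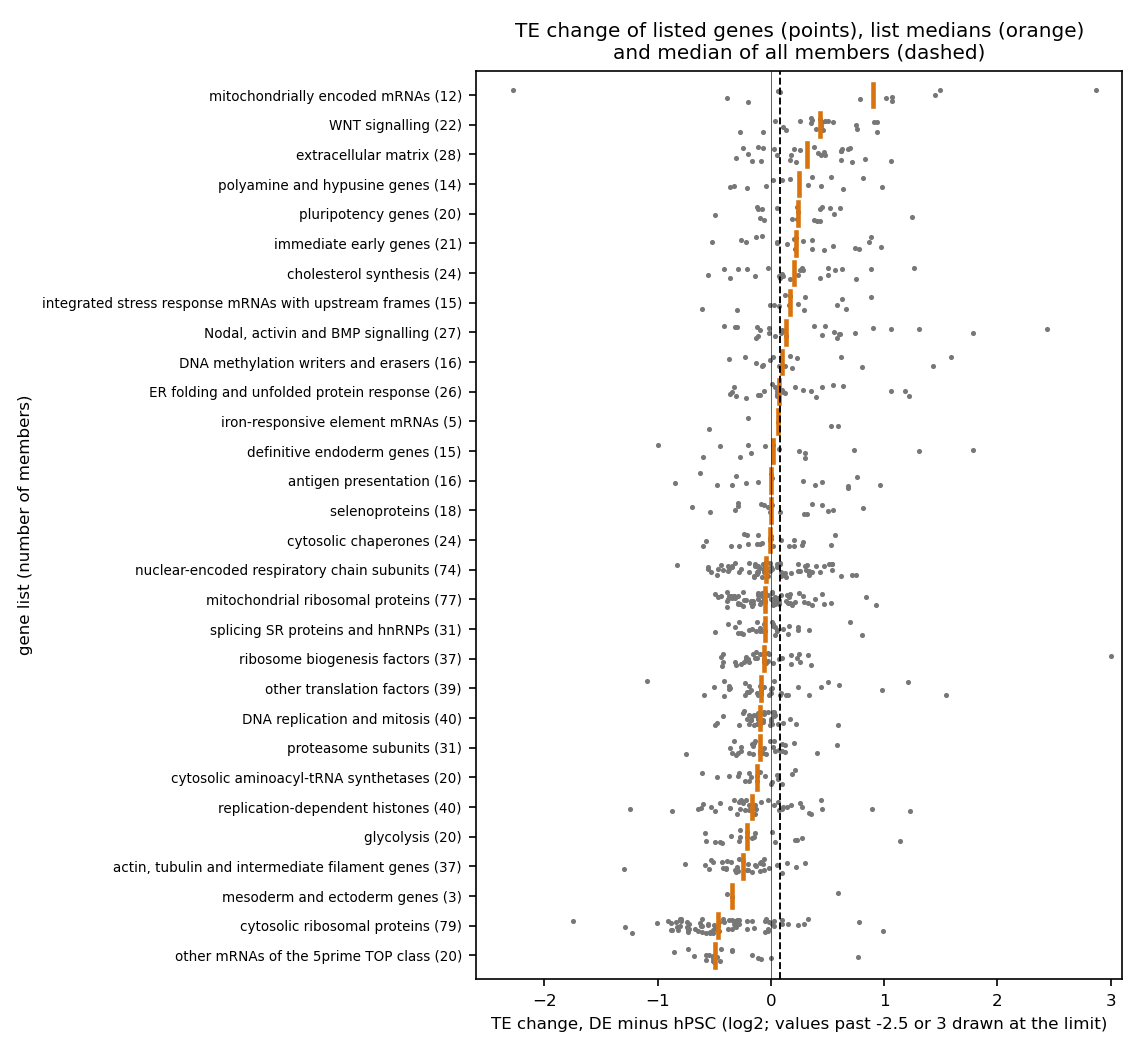
Each grey point is the TE change (log2, DE minus hPSC) of 1 gene in 1 of the 30 lists, orange bars are list medians and the dashed line is the median of all genes (0.08); WDR74 (5.69) is drawn at the right edge. The ribosomal proteins (-0.47) and other TOP mRNAs (-0.49) lie at the low end and the mitochondrially encoded mRNAs (0.90) and WNT genes (0.44) at the high end.

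The 37 actin, tubulin and intermediate filament genes had a median of -0.25, with 14 below, 1 above and 0 called. Of all genes examined 10.8% were below and 25.8% above. Relative to all genes the median was -0.33, and it was -0.22 without DE footprint library 1, -0.42 without library 2 and -0.08 in FLAG footprints. The 20 glycolysis genes had -0.21 (-0.32 and -0.05 in the DE libraries). GAPDH, of that list, had -0.45 ± 0.22, and SLC2A1 (GLUT1), chosen after its values were seen, 1.14 ± 0.27 after a fall in RNA of 2.68. Replication-dependent histones, whose mRNAs lack a poly(A) tail, had -0.16 over 40 genes, with the DE libraries apart at -0.47 and 0.16; relative to all genes this was -0.25, against 0.04 without DE footprint library 1 and 0.32 in FLAG footprints.

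Genes of cholesterol synthesis (24) had a median of 0.20. Of these 19 were called lower in RNA and 17 in footprints (31.9% and 28.4% of the genes examined), and 0 passed the TE test. The 21 immediate early genes had a median of 0.22, with ZFP36L1 called. Proteasome subunits (31), mitochondrial ribosomal proteins, splicing factors (31), DNA replication and mitosis genes (40) and ribosome biogenesis factors (37) had medians between -0.10 and -0.05. Of the 40 replication and mitosis genes 32 were called lower in RNA, against 31.9% of the genes examined. Over the 30 lists only TERF1 and ZFP36L1 passed the TE test. The medians of cytosolic chaperones (-0.01), antigen presentation (0.01), DNA methylation genes (0.09) and folding genes of the endoplasmic reticulum (0.08) lay within 0.10 of the median of all genes. Antigen presentation had -0.30 with DE footprint library 1 and 0.33 with library 2. In FLAG footprints these 4 lists differed from all genes by -0.31, -0.40, -0.11 and -0.41, in the order given. Of 17 mesoderm and ectoderm genes only 3 met the minimum, with a median of -0.34 and 0 called.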

How the data were processed

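RNA-seq and total ribosome footprints of hPSC and DE were compared, with 2 libraries in each of 4 groups. The deposited values are estimated counts (expected counts) per gene. The tools Salmon, DESeq2, UMI-tools, cutadapt and Bowtie and the build GRCh38 are named in the submitters' processing notes, with no version or role, and the annotation release was not given in the sources used here. Estimated counts were rounded, filtered with filterByExpr and scaled by TMM. The interaction of assay and stage was tested by the robust quasi-likelihood F test of edgeR 4.0.16 (R 4.3.3), with Benjamini-Hochberg adjustment over 21681 features. Standard errors come from that fit. The fit shares 1 spread between RNA and footprint libraries, although the biological coefficient of variation was 0.058 in RNA alone and 0.359 in footprints alone.

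Protein-coding genes were found by symbol (10874 of the genes examined) or synonym (79) in RefSeq. Levels are CPM on the TMM scale and are not per length. The rule for naming genes took the 15 largest called changes per direction at a mean log2 CPM of at least 4 without overlap, up to 4 called and 2 uncalled genes per list, and a fixed set; all other genes named were chosen after their values were seen. Members, gene lists and rules were chosen with earlier results of these data known. The lists are described by counts and medians, with no test of a list. Alternatives were size factors, filters, DESeq2 1.42.0, limma 3.58.1 (voom with quality weights), glmTreat, replicate blocks, FLAG footprints and each library left out. The test was checked on simulated data. Sequence features of proteins were not used here, and some genes are not reported here. Tables and figures were made in Python 3.11.15 (matplotlib 3.10.9, pandas 2.3.3, numpy 2.4.6).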

Additional observations from a re-analysis of the deposited data

How the results depend on the processing

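The count of genes called in TE (30, of which 26 higher and 4 lower) moved with nearly every choice. It was 16 (13 and 3) with DESeq2's size factors, 79 (66 and 13) with no filter, 81 (63 and 18) with a stricter filter, 132 (105 and 27) with only the genes examined in the fit, 905 (426 and 479) with DESeq2's Wald test, 40 (25 and 15) with limma voom, and 0 with glmTreat against a log2 change of 1 (0 higher and 0 lower, 126 at an unadjusted p under 0.05). With FLAG footprints added (12 libraries) it was 9 (8 and 1), and with FLAG footprints in place of total 11 (7 and 4). With a minimum of 50 counts 18 remained (16 and 2), since fewer genes were read. Leaving out 1 library gave from 0 to 2845 calls (0 to 513 higher, 0 to 2332 lower). With either DE footprint library left out the biological coefficient of variation was 0.115, against 0.211 with both. What set the number of calls in these fits was not tested. All 30 genes kept their sign under each alternative that gave them a value, though the alternatives reuse libraries that selected these genes. HSP90B1, not called at 0.11, ranged from -0.48 to 0.18 with 1 library left out, and was called at -0.48 without DE footprint library 2, where the median of all genes shifted by -0.37.

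With the replicate number as a block 1 gene was called (1 higher, 0 lower), and with a block within each stage 22 (17 and 5). The replicate differences correlated by 0.23 between RNA and footprints of hPSC, 0.20 in DE and -0.14 between hPSC and DE footprints, so the numbers were not taken as pairs. With the DE numbers exchanged, an alternative chosen after seeing the data, the block gave 18 calls (15 and 3).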

Other observations

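Outside the genes examined, 38 further features passed the TE test, 26 higher and 12 lower in DE, and 11 of them are protein-coding genes with too few counts in at least 1 library. The 3 features named here were chosen after their values were seen. The long noncoding RNA MALAT1, a nuclear RNA, went in RNA from 316 and 318 to 667 and 685 CPM, and its footprint-sized reads from 53.6 and 50 to 229 and 243 CPM, a change in the ratio of 1.10 (adjusted p = 0.032, edgeR). SNHG12, a host gene of small nucleolar RNAs, went in RNA from 18.3 and 21 to 6.39 and 6.31 CPM while its reads in the footprint libraries went from 111 and 104 to 220 and 348 CPM (3.03, adjusted p = 0.0236, edgeR). TRIM22, an interferon-induced ubiquitin ligase, went in RNA from 10.8 and 12.6 to 0.887 and 0.993 CPM and in footprints from 27.6 and 31.2 to 0.417 and 0.436 CPM, a TE change of -2.45 (adjusted p = 0.0259, edgeR) on as few as 4 counts.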
